A study of Mus musculus with 48 samples.

Results

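The 10 genes described here set the step from G1 into S phase: the D cyclins Ccnd1, Ccnd2 and Ccnd3, their kinases Cdk4 and Cdk6, the inhibitors Cdkn1a, Cdkn1b, Cdkn1c and Cdkn2c, and the pocket protein gene Rb1. They were chosen by symbol, and all 10 were found among the 24062 genes of the count table. RNA was measured in 48 single cells of 1 group, mouse BFU-E (burst-forming units, early erythroid progenitors), sorted from fetal liver at embryonic day 14.5. Per the labels' protocols the sort removed cells with lineage markers, kept c-Kit+ cells and took the 10% lowest in CD71. The labels name no strain, genotype, animal or litter, and give the sequenced cells no treatment of their own. The growth protocol also describes culture of sorted cells with DEX and TGF inhibitors, and does not say whether the sequenced cells were cultured first. The 48 cells therefore count as 1 sample, nothing is tested across samples, and no p-value is given.

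D cyclins bind Cdk4 or Cdk6, and the active complex phosphorylates the Rb protein, which then lets go of E2F factors that switch on S phase genes. Inhibitors of the INK4 family, such as p18 from Cdkn2c, bind Cdk4 and Cdk6 directly, while the Cip/Kip family (p21 from Cdkn1a, p27 from Cdkn1b, p57 from Cdkn1c) binds cyclin and kinase together. In the mouse, fetal erythropoiesis is known to depend on D cyclins and on Cdk4 and Cdk6, and cyclin D3 is known to help set how often erythroid precursors divide before they mature.

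Promoter sequence is shown for Cdkn1a and Cdkn1b. Both were picked because the share of cells holding them differed in opposite directions between cells higher and lower in Gata1. The sequences are the 250 bases before a RefSeq start site in GRCm38.p6, read 5′ to 3′ on the plus strand. Capitals mark a pair of ACATGT copies with 4 bases between them, a form of the binding sequence of p53, or the GC box GGGCGG.
Cdkn1a, first start (chr17:29090729-29090978): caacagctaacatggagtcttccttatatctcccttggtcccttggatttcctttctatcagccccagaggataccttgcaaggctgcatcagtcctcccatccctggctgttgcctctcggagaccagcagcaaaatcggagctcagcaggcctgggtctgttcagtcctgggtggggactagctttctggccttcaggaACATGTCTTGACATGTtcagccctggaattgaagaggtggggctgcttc
Cdkn1a, second start (chr17:29093519-29093768): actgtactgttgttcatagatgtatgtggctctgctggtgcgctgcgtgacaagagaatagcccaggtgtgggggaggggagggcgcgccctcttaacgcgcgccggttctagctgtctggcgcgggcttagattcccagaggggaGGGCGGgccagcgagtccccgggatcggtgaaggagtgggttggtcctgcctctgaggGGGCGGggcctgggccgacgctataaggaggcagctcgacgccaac
Cdkn1b (chr6:134920151-134920400): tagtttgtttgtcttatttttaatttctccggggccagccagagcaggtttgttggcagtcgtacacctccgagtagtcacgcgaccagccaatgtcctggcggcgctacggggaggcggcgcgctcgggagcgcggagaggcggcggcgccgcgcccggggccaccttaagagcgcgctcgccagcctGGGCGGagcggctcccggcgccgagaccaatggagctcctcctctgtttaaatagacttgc
The ACATGT pair began at position -49 from the first Cdkn1a start. Written ACATGTNNNNACATGT and searched on both strands, it was found in 4 of 32851 promoters of the same length, or 0.0122%. The letters and gap of this pattern are those of the Cdkn1a site itself, so a match there was certain. Other forms of the p53 sequence were not searched, so the share does not say how common p53 sites are. The GC box occurred 2 times before the second Cdkn1a start and 1 time before Cdkn1b, and in 32.7% of all promoters. Of the 10 genes, 6 had a promoter in the table, namely Ccnd3, Cdk4, Cdk6, Cdkn1a, Cdkn1b and Cdkn2c. None of their windows held a GATA motif (AGATAA or TGATAA, in 16.6% of all promoters) or the C/EBP motif TTGCNNAA (9.56%). An E2F motif (TTCCCGC or TTGGCGC, 5.62% of all promoters) was found 1 time, before Cdkn2c. The CHR motif TTTGAA, in 15.99% of all promoters, was in none of them. The motifs were chosen after the expression values were known, and a match describes letters in a window, not binding.

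Total counts ran from 246007 to 3211186 per cell and genes with a read from 5180 to 7935. Levels are given as CPM (counts scaled to a common library size, with the TMM factors of edgeR), and a cell is said to hold a gene at 10 CPM or more. The BFU-E label was checked against markers. In 2 cells the macrophage genes C1qa, C1qb, C1qc, Timd4, Vsig4 and Cd5l summed to 26015 and 19803 CPM, beside 7.33 CPM of Gata1 or less, and these macrophage-like cells were left out. The next cell by this sum, at 804 CPM, had 491 CPM of Kit and 336 CPM of Gata1 and was kept. Of the 46 cells used, 28 held Gata1, the erythroid master regulator, and 18 did not. Gata1 was read in 42 of the 46 cells, and the 18 had 0 to 9.31 CPM of it. Mpo, the myeloperoxidase of granulocyte precursors, was at 1000 CPM or more in 18 cells, of which 2 held Gata1. By these 2 genes, 16 cells went against an erythroid label. Summed over 11 erythroid genes other than Gata1, the cells high in Mpo had a median of 125 and a highest value of 2450 CPM. Such sets rest on transcript levels measured in the cells themselves, so their cells do not replicate any condition.

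Every one of the 46 cells had reads of Cdk4 and of Ccnd2, whereas the other kinase and the other D cyclins were missing from some cells. Per kilobase of exon, Cdk4 had the highest mean level, 225 ± 129 CPM per kb (SD, n = 46 cells), and Ccnd2 followed at 34.7 ± 41.5 CPM per kb. Ccnd3 averaged 9.12 ± 12.9 CPM per kb and Ccnd1 7.19 ± 14.2 CPM per kb. Below them came Cdkn1b at 3.49 ± 4.69, Cdkn1a at 3.30 ± 12.6 and Cdk6 at 2.98 ± 13.4 CPM per kb. Cdkn1c (0.396 ± 2.12), Rb1 (0.211 ± 0.569) and Cdkn2c (0.0702 ± 0.314 CPM per kb) were lowest. From Ccnd2 down, neighbours in this order differed by less than the larger of their SDs, and Cdk4 lay above Ccnd2 by more than either SD. The means of Cdk6 and Cdkn1a leaned on 1 cell each, which gave 65.6% and 53.5% of the summed level. Their medians per kb were 0.0469 and 0, and that of Cdkn1b was 1.86.

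**Figure D1:**
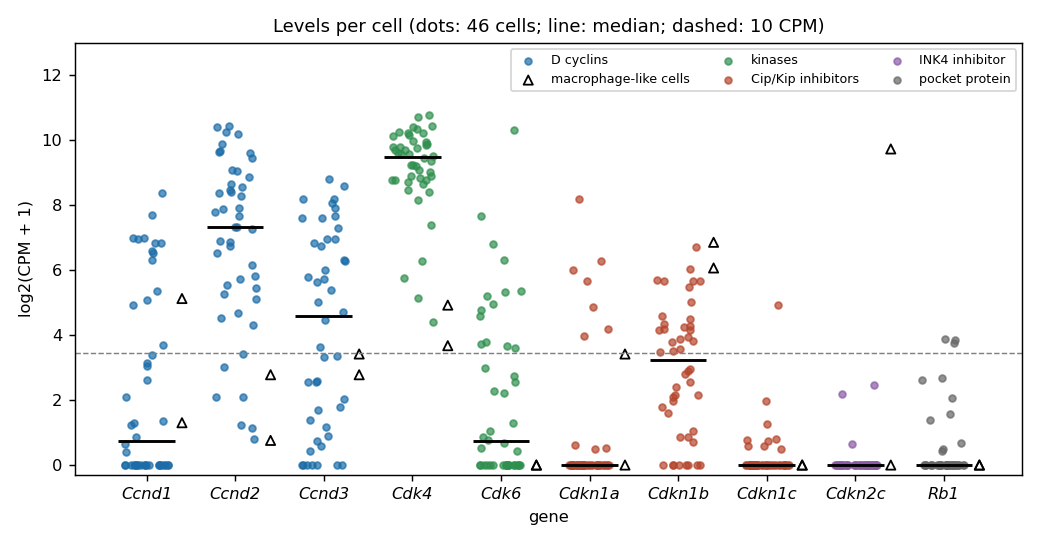
Level of each of the 10 genes per cell, as log2(CPM + 1), with 46 cells as dots, the median as a line, 10 CPM as a dashed line and the 2 macrophage-like cells as open triangles. Cdk4 lies above the dashed line in all 46 cells, Ccnd2 runs from 0.739 to 1378 CPM, and most cells lie at or near 0 for Cdkn1a, Cdkn1c, Cdkn2c and Rb1.

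Ccnd2 was the D cyclin of most cells. The gene (chromosome 6, 127125162 to 127152193, minus strand, GRCm38) ran from 0.739 CPM in the lowest cell through a median of 159 to 1378 CPM in the highest. It was held by 39 of 46 cells (84.8%, 95% Clopper-Pearson interval 71.1 to 93.7%, which covers counting error only, as do all intervals here). The levels formed a wide spread rather than an even one, with 28 cells at 100 CPM or more. Ccnd2 was the D cyclin with the highest level per kb in 33 of 46 cells.

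Ccnd3, the cyclin known from later erythroid divisions (chromosome 17, 47505051 to 47599691, plus strand), had a lowest value of 0, a median of 23.1 and a highest value of 447 CPM. It was held by 25 cells (54.3%, interval 39.01 to 69.1%), reached 100 CPM in 14 and led the D cyclins per kb in 8. The 14 cells at 100 CPM or more came from both sides of the Gata1 split and included cells both high and low in Mki67, a gene of dividing cells. Ccnd1 (chromosome 7, 144929931 to 144939925, minus strand) was read in 25 cells but held by 14 (30.4%, interval 17.7 to 45.8%). Its median was 0.687 CPM, and its highest cells had 333, 206, 126, 125, 124, 114 and 112 CPM. Ccnd1 thus fell into 7 cells of clear level, 7 cells of 11.98 to 94.4 CPM and 32 below 10 CPM.

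Many cells held more than 1 D cyclin. Spearman's rho over the 46 cells was 0.10 for Ccnd1 with Ccnd2, 0.04 for Ccnd1 with Ccnd3 and -0.06 for Ccnd2 with Ccnd3. The counts that follow were not set against those that the single shares alone would give. Of the 46 cells, 27 held 2 or more (58.7%, interval 43.2 to 73.0%), 16 held 1 and 3 held none. The most frequent combination was Ccnd2 with Ccnd3, in 14 cells, followed by Ccnd2 alone in 12 and all 3 in 8. Ccnd1 with Ccnd2 was found in 5 cells, Ccnd3 alone in 3 and Ccnd1 alone in 1. No cell held Ccnd1 with Ccnd3 and without Ccnd2 (0 of 46 cells, which allows a share of up to 6.52%, taken as 3 cells of the total here and at later counts of 0, with a Clopper-Pearson upper bound of 7.71%). The 3 cells holding none all held Gata1 and Cdkn1b, and 2 of them had the lowest total counts of all, 246007 and 357378. The third had 2843858 total counts, 3.26 CPM each of Ccnd1 and Ccnd2, no read of Ccnd3 and 945 CPM of Cdk4.

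Cdk4 (chromosome 10, 127063534 to 127067920, plus strand) was held by all 46 cells, with a lowest value of 20.1, a median of 711 and a highest value of 1740 CPM. Its spread was the narrowest of the 10 genes relative to its mean, 730 ± 419 CPM (SD, n = 46 cells). The 4 cells below 100 CPM had 76.2, 52.6, 34.1 and 20.1 CPM. Cdk4 overlaps Tspan31 on the opposite strand by 641 bases, and the strand setting of the counting is not given in the sources used here. The same kind of overlap holds for Ccnd3 with Bysl (361 bases), Ccnd2 with 9330179D12Rik (2805 bases) and Rb1 with Lpar6 (5400) and Rcbtb2 (24171 bases). These lengths are for whole genes with their introns, and shared exon bases were not counted. Where exons overlap, reads may not be told apart.

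Cdk6 (chromosome 5, 3341485 to 3531008, plus strand) was held by 14 of the 46 cells (30.4%, interval 17.7 to 45.8%), so 14 cells held both kinases and 32 held Cdk4 alone. The holding cells had 1260, 201, 110, 77.7, 39.7, 39.3, 35.8, 29.8, 26.4, 23.1, 12.8, 12.2, 11.6 and 11.1 CPM, and the median over all 46 cells was 0.656 CPM. A single cell therefore stood far above the rest. It had 551 reads of Cdk6, 52.6 CPM of Cdk4, 3692 CPM of Mki67 and 2.29 CPM of Gata1. Of the 14 cells, 13 held Ccnd2, 7 held Ccnd3 and 1 held Ccnd1.

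The 2 kinases ran against each other by rank. The 4 cells under 100 CPM of Cdk4 had 0, 1260, 4.86 and 29.8 CPM of Cdk6, in falling order of Cdk4. Across the 46 cells Spearman's rho between both kinases was -0.42, the 1 of the 45 pairs of the 10 genes beyond 0.4 in size. Of all 8481 other genes that passed a filter (10 or more cells with a read, and 5 CPM or more on average), 0.672% were that far from 0 with Cdk4 and 0.731% with Cdk6. The value is a description over cells that share 1 source, unequal depth and, for Cdk6, many zeros. Without the cell of highest Cdk6 it was -0.38, on plain total counts -0.35 and with all 48 cells -0.31. The next pair by size was Ccnd2 with Cdkn1b, at -0.37.

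Of the inhibitors, Cdkn1b was the one found in most cells. It (chromosome 6, 134920401 to 134925513, plus strand) had a lowest value of 0, a median of 8.45 and a highest value of 104 CPM, and was held by 23 of 46 cells (50.0%, interval 34.9 to 65.1%). Only 1 cell reached 100 CPM, so Cdkn1b was widespread and low. With every cell thinned to 246007 counts, 34.8% of cells held it. Cells holding Cdkn1b also held Ccnd2 in 17 cases, Ccnd3 in 15 and Ccnd1 in 4.

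Cdkn1a (chromosome 17, 29090976 to 29100727, plus strand) was the reverse, without a read in most cells and high in few. It was read in 10 and held by 7 of 46 cells (15.2%, interval 6.34 to 28.9%), at 288, 76.1, 63.2, 49.6, 28.3, 17.3 and 14.7 CPM. All 7 held Ccnd2, 3 held Ccnd1 and 3 held Ccnd3. Cdkn1a and Cdkn1b were held together in 2 cells, at 63.2 and 50.7 CPM in one and 17.3 and 13.7 CPM in the other.

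Cdkn1c, Cdkn2c and Rb1 were near the floor of detection and did not pass the filter, which the other 7 genes did. Cdkn1c (chromosome 7, 143458339 to 143461050, minus strand) was read in 9 cells and held by 1, at 29.2 CPM from 57 reads, a cell with 479 CPM of Gata1. Cdkn2c (chromosome 4, 109660876 to 109667189, minus strand) was read in 3 cells and held by 0 of 46, with at most 8 reads. Rb1 (chromosome 14, 73183673 to 73325822, minus strand) was read in 11 cells and held by 3, at 13.7, 13.5 and 12.6 CPM. Counting all 4 inhibitors, 17 cells held none, 27 held 1 and 2 held 2, so 29 of 46 held at least 1 (63.0%, interval 47.5 to 76.8%).

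Set against Gata1, 3 of the 10 genes differed by 30 percentage points or more in the share of cells holding them: Ccnd1 and Cdkn1a were held by a smaller share of the Gata1-holding cells, and Cdkn1b by a larger share. Of the 8482 genes that passed the filter, 6.46% differed as far, 3.38% with the smaller share and 3.08% with the larger. Cdkn1a passed that filter through the cells below 10 CPM of Gata1, with a mean of 29.9 CPM against 0.0348 CPM in Gata1-holding cells. Setting it beside the share over all genes is therefore not like for like. Ccnd1 was held by 4 of 28 Gata1-holding cells (14.3%, interval 4.03 to 32.7%), against 10 of 18 other cells (55.6%, interval 30.8 to 78.5%), a difference of -41.3 points. In Gata1-holding cells the lowest value, median and highest value of Ccnd1 were 0, 0 and 125 CPM, against 0, 20.8 and 333 CPM in the other cells. The sets overlapped, since 4 Gata1-holding cells had 78.5 to 125 CPM.

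Cdkn1a was held by 0 of 28 Gata1-holding cells, which allows a share of up to 10.7% (Clopper-Pearson upper bound 12.3%), against 7 of 18 other cells (38.9%, interval 17.3 to 64.3%), a difference of -38.9 points. The highest of the 28 had 0.536 CPM, against 288 CPM for the highest of the 18. Every holding cell was thus below 10 CPM of Gata1. Of the 18 cells there, 11 were below 10 CPM of Cdkn1a as well. The 7 cells had 9.31 CPM of Gata1 or less, and 1129 to 53282 CPM of Mpo.

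Cdkn1b showed the opposite split. It was held by 19 of 28 Gata1-holding cells (67.9%, interval 47.6 to 84.1%), against 4 of 18 other cells (22.2%, interval 6.41 to 47.6%), a difference of 45.6 points. In Gata1-holding cells the lowest value, median and highest value were 0, 16.9 and 104 CPM, against 0, 2.72 and 50.7 CPM in the other cells. The ranges overlapped almost whole, and the medians fell on either side of 10 CPM. With every cell thinned to 246007 total counts the counts were 13 of 28 against 3 of 18, a difference of 29.8 points and just under the limit. At that depth 10 CPM is a matter of a few reads. Under the same thinning Ccnd1 was held by 4 of 28 against 9 of 18 (-35.7 points) and Cdkn1a by 0 of 28 against 7 of 18.

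The limit for holding a gene decided these calls. At 50 CPM 0 of the 10 genes passed 30 points. Ccnd1 was then held by 4 of 28 Gata1-holding cells against 6 of 18 others (-19.05 points), Cdkn1a by 0 of 28 against 3 of 18 (-16.7 points) and Cdkn1b by 3 of 28 against 1 of 18 (5.16 points).

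**Figure D2:**
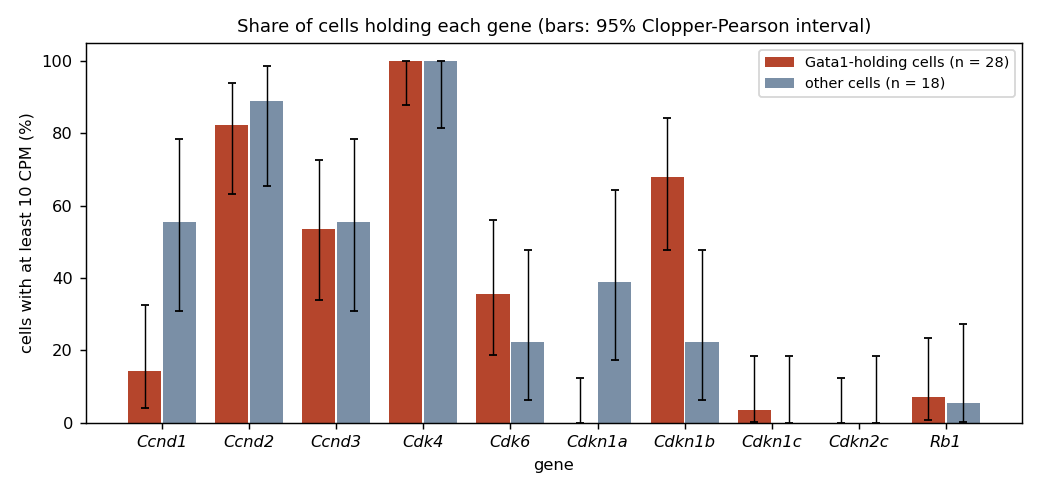
Share of cells with at least 10 CPM of each gene, in percent, in the 28 Gata1-holding cells (left bars) and the 18 other cells (right bars), with 95% Clopper-Pearson intervals. Cdkn1b stands higher in Gata1-holding cells (67.9 against 22.2%), while Ccnd1 (14.3 against 55.6%) and Cdkn1a (0 against 38.9%) stand lower.

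The other genes differed less in how many cells held them. Ccnd2 was held by 23 of 28 Gata1-holding cells and 16 of 18 others, Ccnd3 by 15 of 28 and 10 of 18, and Cdk4 by all cells of both sets. Cdk6 was held by 10 of 28 Gata1-holding cells and 4 of 18 others (35.7 against 22.2%). Medians of Cdk4 were 759 CPM in Gata1-holding cells and 509 CPM in the others, and those of Ccnd2 181 and 130 CPM. Ccnd3 had medians of 16.3 and 50.0 CPM. All 3 D cyclins were held together by 2 of 28 Gata1-holding cells (7.14%) and 6 of 18 others (33.3%). At least 1 inhibitor was held by 20 of 28 Gata1-holding cells (71.4%) and 9 of 18 others (50.0%), and the kind differed, with Cdkn1b in 19 of those 20.

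Markers of other lineages moved with this split. Of 11 neutrophil and monocyte genes other than Mpo, 10 were read in either set and Ngp was at 0. Their summed level had a lowest value of 1.48, a median of 19.3 and a highest value of 1812 CPM in Gata1-holding cells, against 9.16, 1718 and 29275 CPM in the other cells. A list of 11 erythroid genes other than Gata1 summed to 4.75, 2445 and 6901 CPM in Gata1-holding cells and to 4.97, 391 and 2450 CPM in the others. Of 7 mast cell and basophil genes, 3 were read in each set, but not the same 3. Mcpt8 had no read in Gata1-holding cells and Ms4a2 had none in the others. The summed level of the 7 genes had a lowest value of 0, a median of 3.09 and a highest value of 2293 CPM in Gata1-holding cells. In the others these values were 0.611, 246 and 1879 CPM. Prss34, Fcer1a and Gzmb of that list were at 0 in both sets. The 11 macrophage genes summed to 0, 0.835 and 1168 CPM in Gata1-holding cells and to 0, 15.6 and 341 CPM in the others. Medians of the summed megakaryocyte genes were 130 and 80.6 CPM, and lymphoid genes summed to at most 4.86 and 4.84 CPM. Median total counts were 2074380 and 1659080. The part of these differences in the shares of Ccnd1, Cdkn1a and Cdkn1b was not tested.

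**Figure D3:**
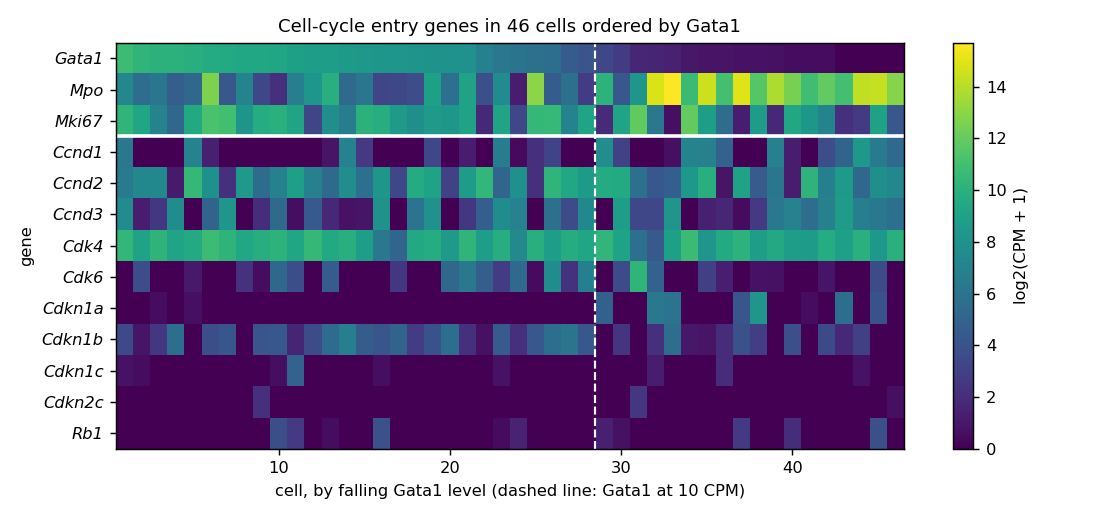
Levels as log2(CPM + 1), by colour, of Gata1, Mpo and Mki67 and of the 10 genes (rows) in 46 cells (columns) placed by falling Gata1, with a dashed line where Gata1 passes below 10 CPM. The 7 cells with Cdkn1a and 10 of the 14 with Ccnd1 lie right of the line, 19 of the 23 with Cdkn1b lie left of it, and Cdk4 runs through both sides.

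By rank, without a split, none of the 10 genes reached the limit with Gata1. Spearman's rho passed 0.4 in size for 0 of the 10 genes, against 3.94% of 8481 genes. The values farthest from 0 were -0.35 for Ccnd1, -0.31 for Cdkn1a, 0.28 for Cdkn1b and 0.27 for Cdk4. Cdkn1a passed with cells thinned (-0.40) and as Pearson's r on log2(CPM + 1) (-0.45). Within the 28 Gata1-holding cells the level of Cdk6 went against that of Gata1, with a rho of -0.50, where 3.27% of 7586 genes were that far from 0. The cells with most Cdk6 among them had 201, 110 and 77.7 CPM, at 49.9, 16.3 and 245 CPM of Gata1. The median of Gata1 in the set was 359 CPM. Under the limit, rho with Gata1 in these 28 cells ran from -0.35 for Cdkn1b to 0.34 for Cdk4. Cdkn1b had 0.02 in the 18 other cells. Its larger share in Gata1-holding cells was thus not matched by a rise with Gata1 inside either set.

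Set against Mpo, Ccnd1 and Cdkn1a were held by a larger share of the cells high in Mpo and Cdk6 by a smaller share. Ccnd1 was held by 10 of 18 cells with 1000 CPM of Mpo or more and by 4 of 28 with less (55.6 against 14.3%), and Cdkn1a by 7 of 18 and 0 of 28 (38.9 against 0%). Cdk6 was held by 2 of 18 cells high in Mpo and by 12 of 28 lower in it (11.1 against 42.9%), a difference of -31.7 points. Those 3 genes passed 30 points, as 7.03% of all filtered genes did, 3.73% with a larger and 3.3% with a smaller share. The Mpo split was made at 10 CPM only. It was not repeated at 50 CPM, the limit at which no gene of the 10 passed by Gata1. Cdkn1a passed the filter through the cells high in Mpo, with a mean of 29.9 CPM against 0.0348 CPM in the rest. Cdk6 passed it through the rest, with a mean of 66.7 CPM against 2.87 CPM in the cells high in Mpo. For these 2 genes the comparison with all filtered genes is not like for like. Cdkn1b was held by 6 of 18 and 17 of 28 cells, a difference of -27.4 points. Of the 18 cells high in Mpo, 16 did not hold Gata1. This split and the Gata1 split therefore cannot be told apart as sources of a difference.

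Across all 46 cells rho with Mpo passed 0.4 for 2 of the 10 genes, Cdkn1a at 0.42 and Ccnd1 at 0.41, where 5.15% of 8481 genes did. With all 48 cells they were 0.38 and 0.38, and neither passed. Cdkn1a had passed the filter only through the cells high in Mpo. Ccnd1 alone fell below 0.4 without the 5 cells of lowest total count (0.38), as Pearson's r on log2(CPM + 1) (0.38) and once the number of genes detected was taken out (0.39995, just under the limit). Within the 28 Gata1-holding cells, Cdk4 (0.51) and Ccnd1 (0.43) passed with Mpo, where 4.89% of 7586 genes did, and none passed with Mki67, where 3.53% did. In the 18 other cells 0 of 15 relations of the 5 genes read often enough passed, where 11.6%, 14.7% and 12.1% of 6078 genes passed with Gata1, Mpo and Mki67. Ccnd1 with Mpo had a rho of -0.05 in those 18 cells, against 0.41 over all cells.

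**Figure D4:**
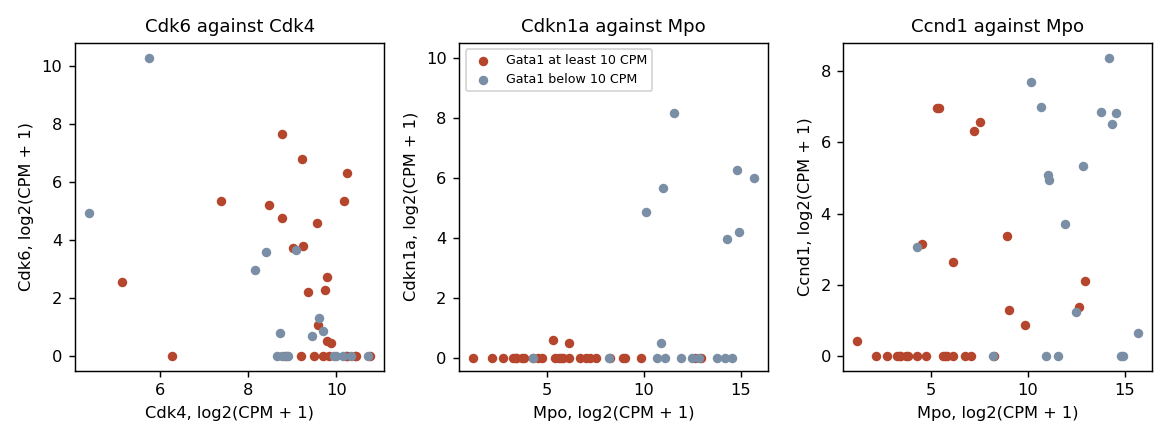
Each dot is 1 of 46 cells, with axes as log2(CPM + 1), red where Gata1 is at least 10 CPM and grey-blue where it is lower. Cdk6 is plotted against Cdk4 (rho -0.42), Cdkn1a against Mpo (0.42) and Ccnd1 against Mpo (0.41), and all cells with clear Cdkn1a are grey-blue and lie at 1129 CPM of Mpo or more.

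Against Mki67 no gene of the 10 passed either limit. Between the 19 cells with 500 CPM of Mki67 or more and the 27 with less, the differences in share ran from -25.9 to 22.4 points, and 2.98% of filtered genes passed 30. Cdkn1a was held by 0 of 19 cells high in Mki67, which allows up to 15.8% (Clopper-Pearson upper bound 17.6%), and by 7 of 27 others (25.9%). One of those 7 cells had 497 CPM of Mki67, just under the limit. Cdkn1b was held by 12 of 19 cells high in Mki67 and 11 of 27 others (63.2 against 40.7%), and Cdk6 by 8 and 6 (42.1 against 22.2%).

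By rank the picture was the same. Spearman's correlation with Mki67 ran from -0.35 for Cdkn1a to 0.18 for Cdk6, with 0 of 10 past 0.4 where 1.14% of 8481 genes passed. Summed S phase genes (42 genes) gave 0.39 for Cdkn1a as the highest value and summed G2/M genes (51 genes) gave -0.30 for Ccnd1 as the farthest from 0. Neither sum had any of the 10 genes past 0.4, where 1.41% and 1.21% of 8482 genes passed. Ccnd2, the most widely held D cyclin, had a rho of -0.02 with Mki67, and Cdk4 one of 0.03.

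The rest of the Rb pathway was taken from a list of 37 genes. Of these, 34 were read in at least 10 of the 46 cells and 23 were held by at least 10. The shares over all 24062 genes were 39.9% and 26.3%. Those genes include 9946 without any read, so the comparison is not like for like. Among pocket proteins, Rbl1 (p107) was held by 19 cells and Rbl2 (p130) by 8, beside the 3 cells for Rb1. Among 10 E2F and DP genes, 4 were held by at least 10 cells. The most widely held were Tfdp1, which pairs with E2F factors, in 44 cells and E2f4 in 32. E2f1, E2f2 and E2f3 were held by 8, 5 and 9 cells. The next cyclins of the cycle were held by 11 cells (Ccne1), 13 cells (Ccne2) and 31 cells (Ccna2). Cdkn2a and Cdkn2b, the INK4 genes of p16 and p15, had no read in any of the 46 cells, which allows a share of up to 6.52%, and neither had Ccna1.

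Past a rho of 0.4 in size, 0 of the 37 genes passed with Gata1, 1 with Mpo and 1 with Mki67, where 3.94%, 5.15% and 1.14% of all filtered genes did. Cdk7, of the kinase complex that activates Cdks, had a rho of -0.44 with Mpo. Fbxo31, of a ubiquitin ligase that targets cyclin D1, had one of 0.42 with Mki67 and was held by 5 cells. With the summed G2/M genes Cdkn2d had 0.48 and Mnat1, of the same complex as Cdk7, 0.46, where 1.21% of all genes passed. Ccne2 had 0.45 with the summed S phase genes, of which it is itself one, where 1.41% passed. Cdkn2d, which encodes the INK4 inhibitor p19, was held by 14 cells, with a median of 0.515 and a highest value of 270 CPM. It also had a rho of 0.42 with Cdk6, one of its targets, and of -0.46 with Cdkn1a, where 0.731% and 1.32% of all filtered genes passed.

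By rank over the 46 cells, each of the 6 genes held by at least 10 cells had a few genes most like it. For Ccnd1 these were Ptpn18 (rho 0.58), Gm1966 (0.57) and Il12a (0.57), and for Ccnd2 Psmd1 (0.55), Ndufv1 (0.54) and Nudt2 (0.53). Ccnd3 was most like Bub3 (0.54), 4921524J17Rik (0.51) and Farsa (0.51). For Cdk4 they were Rps6ka3 (0.51), Paics (0.50) and Tgfbr1 (0.49), and for Cdk6 Hist1h1b (0.58), Igsf3 (0.56) and Ctcf (0.53). Cdkn1b was most like Pigo (0.61), Ilvbl (0.52) and Taf2 (0.52). Each set is the top of 8481 values and shows likeness in these cells only. Of all 8481 genes, 1.16% were past 0.4 in size with Ccnd1, 0.884% with Ccnd2, 0.931% with Ccnd3 and 0.873% with Cdkn1b.

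The 2 macrophage-like cells both held Cdk4 and Cdkn1b. Cdkn1b was at 115 and 66.0 CPM in them, against at most 104 CPM in the 46. Cdk4 was at 11.8 and 29.3 CPM, against a median of 711 CPM. Ccnd2 was at 0.692 and 5.87 CPM, and Cdk6 had no read. The 2 cells also differed from each other, with 33.9 and 1.47 CPM of Ccnd1 and 848 and 0 CPM of Cdkn2c.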

How the data were processed

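Single cells were captured on a Fluidigm C1 chip and amplified with SMART-Seq chemistry without molecular identifiers, per the labels' protocols. TopHat2 2.0.12, featureCounts 1.4.6 and mm10 are named in the submitters' processing notes. The authors deposited a table of whole-number counts (24062 genes, 9946 without any read) and a log2 table that equals log2 of the count over a size factor, plus 1, within 1e-06. Column names could not be tied to sample titles, so all 48 cells form 1 sample.

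CPM used TMM factors from edgeR 4.0.16 in R 4.3.3 (0.419 to 1.70). Other steps used Python 3.11.15, numpy 2.4.6, scipy 1.17.1, pandas 2.3.3 and matplotlib 3.10.9. The 2 cells with 1000 CPM or more over 6 macrophage genes were left out. Genes with reads in 10 or more cells that averaged 5 CPM or more, 8482 in all, passed the filter. Relations are Spearman's rho over cells, and the limits were 10 CPM, a rho of 0.4 and 30 percentage points. Doublets were not called. Reads of free RNA cannot be measured here, and a share of cells with a read may hold some. Only the Spearman step was tested on simulated counts.

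The genes and lists were chosen with earlier results of these data known. The limits of 30 points, 1000 CPM of Mpo and 500 CPM of Mki67, the comparisons of shares and the promoter motifs were chosen after seeing the data. Named genes were the 10 genes, Gata1, Mpo, Mki67 and pathway genes past a rho of 0.4 with one of them. Pathway genes past 0.4 with the summed S phase or G2/M genes were named too. So were the 3 genes most like each of the 10 that at least 10 cells held, beside the counts of pathway genes. Exon lengths and positions are from GENCODE for GRCm38. Alternatives were plain totals, the authors' log2 table, thinning to 246007 counts, all 48 cells, no 5 shallowest cells, holding at 1 read or 50 CPM, and Pearson's r with a pseudocount of 1 or 10.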

Additional observations from a re-analysis of the deposited data

Results flagged for a closer look

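Cdkn2c, the gene of the INK4 inhibitor p18, reached 848 CPM from 1225 reads in 1 of the 2 macrophage-like cells, which enter no comparison. The other of the 2 had 0 CPM, and among the 46 cells compared the highest value was 4.57 CPM from 8 reads. The cell with 848 CPM also had 1061 CPM of Mki67, against 2.93 CPM in the other. With 1 such cell no test was possible.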

How the results depend on the processing

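No paired analysis was possible because the cells form 1 group. Other settings gave 460 values. They left out the splits by Mpo and by Mki67, rho within the Gata1 sets, and rho with pathway genes or summed cycle genes. Among the 460, a change of direction was looked for only where a main difference in share passed 30 points or a main rho passed 0.4. None was found there. Smaller values could change sign, as rho of Ccnd2 with Gata1 did, from -0.01 to 0.03 with all 48 cells. The shares of cells rested on the limit for holding a gene. At 1 read, 93.5% of cells held 2 or more D cyclins, 56.5% both kinases and 95.7% at least 1 inhibitor, and at 50 CPM 8.70% held both kinases and 13.04% at least 1 inhibitor. At 50 CPM 0 of the 10 genes passed 30 points by Gata1. With Gata1, 1 gene passed a rho of 0.4 with thinned cells and 1 as Pearson's r with a pseudocount of 1 or of 10, in place of 0. With Mpo, 0 passed with all 48 cells, and 1 without the 5 shallowest cells, 1 as Pearson's r with a pseudocount of 1 or of 10 and 1 with genes detected taken out, in place of 2. Over all genes with Mki67, 150 passed without the 5 shallowest cells, in place of 97. The other 69 alternatives for these results stayed within the set range, as did 360 for single genes, where 16 moved. The cause of each change was not tested. Depth limits Cdkn1c, Cdkn2c and Rb1, for which a cell with no read may still hold the transcript.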
